A study of Mus musculus with 23 samples.

Results

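The genes described here are 45 members of the cell division programme, chosen by name: 20 that act at entry into S phase or in DNA replication, and 25 that act in mitosis and cytokinesis. They were matched by symbol to the Ensembl identifiers of the count table, where all 45 were found among 53402 identifiers, and all 45 passed the filter on low counts that left 19310 genes for testing. The study sequenced bulk RNA of medullary thymic epithelial cells (mTECs) sorted from C57BL/6 mice as living EpCAM+ cells negative for CD45 and Ly51, in an MHCII-low gate (mTEClo) and an MHCII-high gate (mTEChi). Each gate held wild-type (WT) libraries and libraries of the Aire knockout (KO), with 8 WT and 4 KO libraries of mTEClo and 7 WT and 4 KO libraries of mTEChi. Labelled ages were 4 or 5 weeks in WT and 5 or 6 weeks in KO, where each gate had 2 libraries of each age. All KO libraries were male, and the WT groups mixed males and females. The labels name the KO by genotype only and do not say whether libraries came from separate animals, so p-values measure the spread between these libraries.

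Cells that divide copy their DNA in S phase and part the copies in mitosis, and each step needs its own set of proteins that is made in a wave. The wave for S phase is driven by E2F factors and holds the E-type cyclins, the MCM helicase, the replication clamp and the enzymes that make deoxynucleotides. The later wave is driven by FOXM1 and B-MYB complexes and holds mitotic cyclins, spindle motors, checkpoint proteins and cytokinesis factors. In the thymus medulla mTECs are renewed throughout life, and Aire is the regulator that lets mature mTECs express tissue-restricted antigens. In bulk libraries a lower level can come from fewer cells in cycle or from less of the RNA in each such cell, and these cannot be told apart.

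The promoters of the genes carry sequence letters known for each wave, and some are shown because they display the contrast between the waves. RefSeq promoter windows (GRCm38.p6, 250 bases before to 50 after each start) matched 17 of 20 S phase genes and 20 of 25 mitotic genes; Ccne2, Mcm4, Gins2, Ccna2, Aurkb, Kif20a, Tpx2 and Foxm1 were not matched. The cell cycle homology region (CHR) letters TTTGAA or TTTAAA, on either strand, stood in the windows of 18 of 20 mitotic genes (90%) and 7 of 17 S phase genes (41.2%), against 30.6% of all 27025 genes with a window. The E2F letters TTTCCCGC, TTTGGCGC, TTTCGCGC or TTTGCCGC, on either strand, stood in 7 of 17 S phase genes (41.2%) and 1 of 20 mitotic genes (5%), against 2.61% of all. CCAAT, the NF-Y letters, stood in 17 of 20 mitotic genes and 12 of 17 S phase genes, against 41.1% of all. Matches to different motifs may overlap, TTTAAA reads the same on both strands and is counted once, and a match describes letters only. In the sequences below, written 5′ to 3′ on the gene's strand, the bases before the start that lie clear of annotated exons are given, at most 150 (for Cdk1 bases 176 to 27 before the start, for Plk1 the 33 before it), with every match to these letters in capitals.
Mki67: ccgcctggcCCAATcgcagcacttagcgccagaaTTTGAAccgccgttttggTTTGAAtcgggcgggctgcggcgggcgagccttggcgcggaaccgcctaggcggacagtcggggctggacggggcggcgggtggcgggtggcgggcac
Top2a: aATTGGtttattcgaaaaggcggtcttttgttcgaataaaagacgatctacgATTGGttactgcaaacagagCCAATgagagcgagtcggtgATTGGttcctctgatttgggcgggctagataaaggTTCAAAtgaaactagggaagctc
Ect2: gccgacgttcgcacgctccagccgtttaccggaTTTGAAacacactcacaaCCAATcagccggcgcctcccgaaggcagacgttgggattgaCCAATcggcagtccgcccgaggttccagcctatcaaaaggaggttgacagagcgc
Kif11: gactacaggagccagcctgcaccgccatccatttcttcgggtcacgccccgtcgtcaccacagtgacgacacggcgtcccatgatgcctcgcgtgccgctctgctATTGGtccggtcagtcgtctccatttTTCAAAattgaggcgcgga
Plk1: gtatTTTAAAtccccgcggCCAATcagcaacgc
Cdk1: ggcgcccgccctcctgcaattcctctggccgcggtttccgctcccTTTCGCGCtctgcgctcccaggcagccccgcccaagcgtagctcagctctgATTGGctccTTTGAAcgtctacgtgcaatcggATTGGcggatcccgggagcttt
E2f8: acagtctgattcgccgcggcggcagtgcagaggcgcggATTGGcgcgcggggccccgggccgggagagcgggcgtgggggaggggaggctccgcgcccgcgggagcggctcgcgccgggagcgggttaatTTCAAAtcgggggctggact
Mcm6: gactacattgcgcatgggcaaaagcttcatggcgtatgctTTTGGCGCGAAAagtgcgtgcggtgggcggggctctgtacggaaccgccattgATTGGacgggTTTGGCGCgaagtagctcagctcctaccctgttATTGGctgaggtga
Mcm5: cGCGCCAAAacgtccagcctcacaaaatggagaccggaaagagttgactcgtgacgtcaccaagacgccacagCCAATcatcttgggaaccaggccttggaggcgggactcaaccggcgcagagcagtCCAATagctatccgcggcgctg
Cdc6: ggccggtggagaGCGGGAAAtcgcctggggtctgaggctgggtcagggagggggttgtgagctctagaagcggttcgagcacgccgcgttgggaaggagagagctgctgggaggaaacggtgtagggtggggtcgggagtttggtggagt
On the plus strand these are Kif11 (chr19:37376232-37376381), Plk1 (chr7:122159402-122159434), Mcm5 (chr8:75109359-75109508) and Cdc6 (chr11:98908001-98908150). On the minus strand they are Mki67 (chr7:135716380-135716529), Top2a (chr11:99024190-99024339), Ect2 (chr3:27153879-27154025), Cdk1 (chr10:69352939-69353088), E2f8 (chr7:48881597-48881746) and Mcm6 (chr1:128359706-128359855). Cdk1 was the 1 mitotic gene with both CHR and E2F letters in its window, and Mcm6 had 3 E2F matches. Among the mitotic genes, CHR letters stood in 10 of the 12 matched genes that fell in KO mTEChi and in 8 of the 8 matched genes that did not pass the test there.

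Library totals ranged from 1602125 to 3938588 counts, of which 1650 to 6621 per library fell on the 45 genes. Aire, the targeted gene, had 753 to 921 CPM (counts scaled by library total and TMM factor) in WT mTEChi and 17.1 to 39.3 in KO mTEChi. In mTEClo it had 19.6 to 128 CPM in WT and 0 to 7.58 in KO. Epithelial markers were high in all 4 groups, with summed levels of 1288 to 2476 CPM over 7 genes. Replicates 1 and 2 of WT mTEClo, KO mTEClo and WT mTEChi had fewer than 2000000 counts and all other libraries had at least 2528049. In KO mTEClo and in WT mTEChi these shallow libraries were also the younger ones, so depth and age cannot be told apart there. Exons of 14 of the 45 genes overlap those of another gene in the annotation, and 8 share more than 10% of their exon bases. The labels describe no strand marking, so reads of these pairs may not be told apart. The shares were 67.3% for Gins2 with Gse1, 29.3% for Kif20a with Cdc23, 22.8% for Ube2c with Tnnc2 and 17.4% for Ccne2 with Ints8. They were 12.5% for Ccna2 with Exosc9, 11.2% for E2f8 with Gm2788 and 11.1% for Prc1 with Rccd1, and Mcm7 shares its bases with several neighbours.

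Per kilobase of annotated exon, levels within a group differed widely between the genes. In WT mTEChi the highest were Mki67, a coat protein of mitotic chromosomes, at 24.9 ± 6.29 CPM per kb (SD, n = 7), Top2a, the topoisomerase that untangles sister DNA, at 21.8 ± 5.80, and Uhrf1, which directs maintenance methylation at the fork, at 20.3 ± 1.43. Their spreads overlap, and the licensing factor Cdc6 was lowest at 1.01 ± 0.263. In WT mTEClo the helicase subunits led, with Mcm6 at 14.2 ± 1.79 and Mcm4 at 12.2 ± 1.58 CPM per kb (SD, n = 8), followed by Mki67 at 10.8 ± 1.93 and Mcm7 at 10.3 ± 1.49. The G1/S cyclins Ccne1 and Ccne2 stayed low, at 3.44 ± 0.780 and 3.20 ± 0.213 in WT mTEChi, and so did the mitotic cyclin Ccnb1 at 2.56 ± 0.854.

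The comparison of the gates in WT asks how the MHCII-high cells differ from the MHCII-low cells when Aire is intact. All 25 mitotic genes rose in mTEChi (edgeR quasi-likelihood test, Benjamini-Hochberg adjusted p under 0.05 over all genes), where 36.7% of all genes tested rose and 70.1% were called in either direction. Their median log2 change was 1.49, against 0.00 over all genes tested. For 22 of the 25 every mTEChi library lay above every mTEClo library, which held for 24.8% of all genes tested. Of the 20 S phase genes 10 rose and 1 fell, with a median log2 change of 0.58, and 6 had separate groups in the upward direction.

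Genes of every mitotic role rose, although the role of regulator rests on Foxm1 alone. Mki67 had 71.3 to 143 with a median of 108 CPM in WT mTEClo and 169 to 322 with a median of 253 in WT mTEChi, a log2 change of 1.21 ± 0.35, adjusted p = 0.00436. Every mTEChi library lay above every mTEClo library. Top2a had 37.9 to 69.3 with a median of 56.4 and 126 to 265 with a median of 194 CPM in the same order of groups, and changed by 1.83 ± 0.34, adjusted p = 9.83e-05. Among cyclins and kinases, Ccnb1, the cyclin that activates CDK1 at mitotic entry, had 1.91 to 3.897 with a median of 3.09 and 6.78 to 17.1 with a median of 9.97 CPM and Cdk1 itself 7.13 to 18.6 with a median of 12.3 and 36.1 to 50.7 with a median of 45.3. Both changed by 1.84 on the log2 scale, with an SE of 0.27 for Ccnb1 and 0.29 for Cdk1, and neither gene's groups overlapped. The S and G2 cyclin Ccna2 had 11.2 to 19.1 with a median of 15.5 and 25.8 to 39.9 with a median of 32.4 CPM, and the mitotic kinase Plk1 4.84 to 17.2 with a median of 10.5 and 18.4 to 32.8 with a median of 21.1. The checkpoint kinase Bub1 had the largest change of the 25, 2.12 ± 0.29, followed by the spindle assembly factor Tpx2 with 1.901 ± 0.24, and the cytokinesis exchange factor Ect2 the smallest p, with 1.49 ± 0.13, adjusted p = 2.63e-11. Foxm1, the factor that drives this gene set, moved least: it had 13.8 to 26.1 with a median of 17.03 and 22.8 to 30.2 with a median of 25.8 CPM, groups that overlap, and a change of 0.57 ± 0.25, adjusted p = 0.0464, a call lost in 18 of 37 alternatives. Birc5 (survivin), a partner of Aurora B, had 3.31 to 8.27 with a median of 4.01 and 7.20 to 11.6 with a median of 9.97 CPM, with overlap.

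Among S phase genes the calls differed by role. All 4 genes of the replication fork rose, led by Mcm10, a helicase activation factor, with 1.81 ± 0.26, adjusted p = 2.97e-07, and Gins2 with 1.31 ± 0.19. Pcna, the sliding clamp, had 14.8 to 22.3 with a median of 20.7 CPM in WT mTEClo and 25.2 to 37.1 with a median of 30.3 in WT mTEChi. Those groups did not overlap. None of the 8 origin licensing genes rose: Mcm2 to Mcm6 changed by -0.11, 0.33, 0.05, 0.16 and -0.08, Cdc6 by 0.24 and Cdt1 by -0.07, and Mcm7, the only gene to go against the majority, fell with a log2 change of -0.67 ± 0.13, adjusted p = 4.36e-05. Rrm2, the ribonucleotide reductase subunit that is made in S phase, had 4.58 to 12.2 with a median of 9.11 and 25.7 to 30.01 with a median of 29.3 CPM, without overlap, and changed by 1.64 ± 0.30, adjusted p = 3.46e-05. Its partner subunit Rrm1, which is kept through the cycle, changed by -0.11 ± 0.08, adjusted p = 0.205. Mcm5 had 31.6 to 47.7 with a median of 35.4 CPM in WT mTEClo and 29.3 to 51.6 with a median of 40.3 in WT mTEChi. Cdc6 had 3.45 to 5.19 with a median of 4.48 and 3.93 to 7.85 with a median of 4.64, and both genes' groups overlap. Ccne1 had 2.87 to 8.24 with a median of 5.02 and 7.14 to 12.4 with a median of 8.57 CPM and Ccne2 6.71 to 9.19 with a median of 7.88 and 9.996 to 12.001 with a median of 11.1. Both E-type cyclins rose, by 0.75 ± 0.25 and 0.51 ± 0.15, with overlap for Ccne1 only. E2f1 missed the threshold, with 1.34 to 4.46 with a median of 3.69 and 4.34 to 8.40 with a median of 6.43 CPM and 0.89 ± 0.40, adjusted p = 0.0518.

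Markers of other cell types moved with the gate as well. For thymocytes the summed level of 13 markers was 19.0 to 30.9 CPM in WT mTEClo and 78.5 to 98.1 in WT mTEChi, and of the 7 tested 6 rose and Themis fell. From WT mTEClo to WT mTEChi the summed levels went from 15.0 to 27.9 CPM to 118 to 156 for 9 markers of dendritic cells and macrophages and from 114 to 163 to 483 to 545 for 4 markers of blood cells in general. They went from 64.2 to 97.7 to 199 to 370.2 for 7 fibroblast markers and from 48.2 to 59.8 to 99.0 to 131 for 7 B cell markers. None of these was at 0 in all libraries of a group, and their part in the result was not tested. Requiring a change of over 2-fold left 4 S phase calls.

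**Figure D1:**
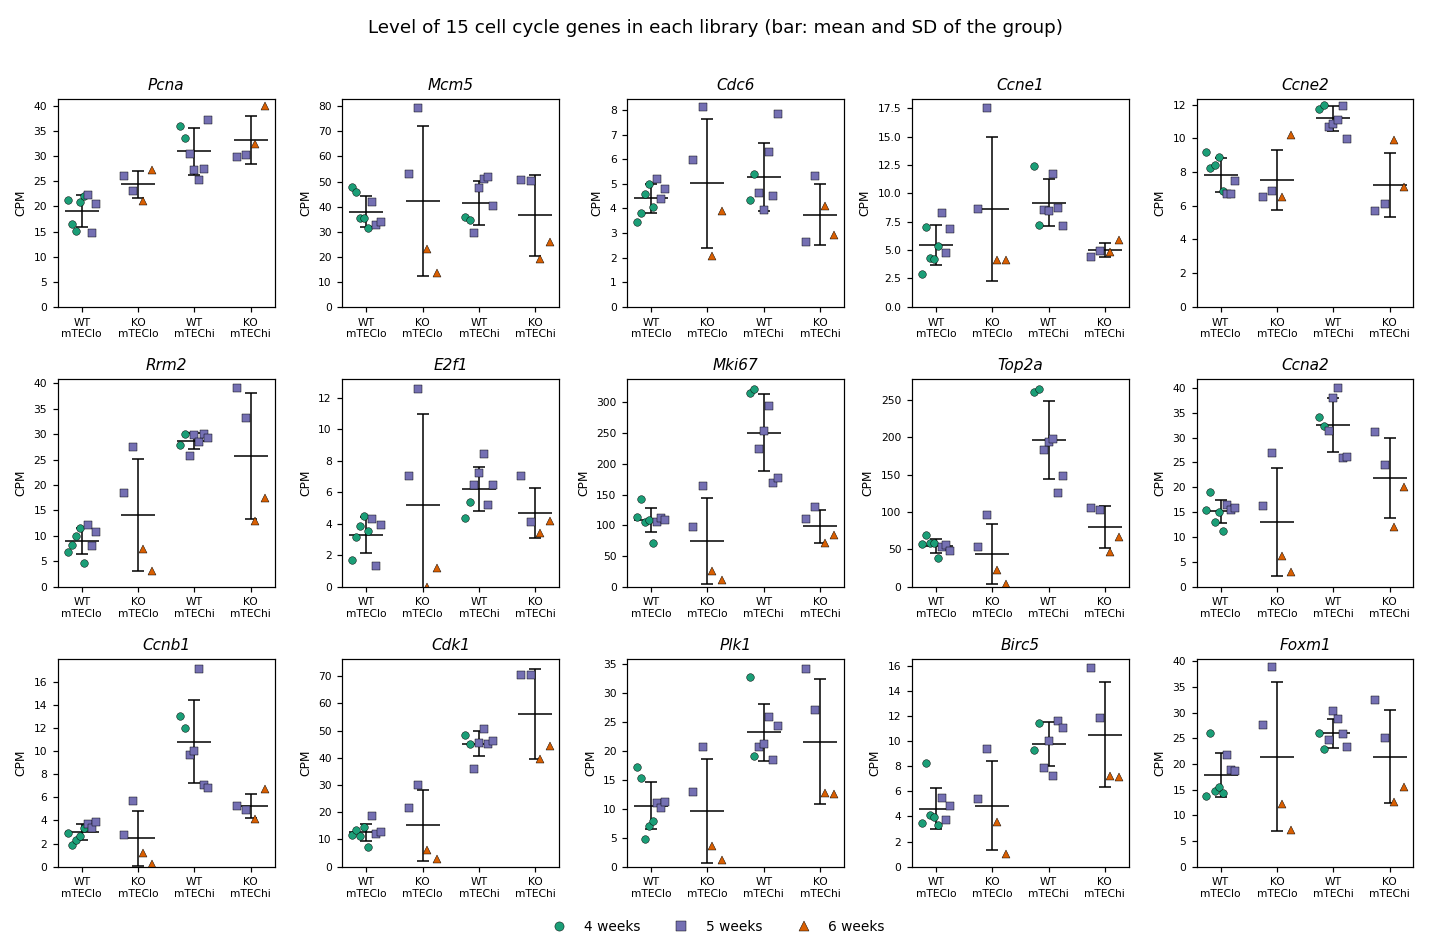
Level of 15 genes in CPM (linear axes from 0) in each of the 23 libraries, by group, with colour and shape for the labelled age and a bar for the group mean and SD. In the panels of Mki67, Top2a, Ccnb1 and Cdk1 all WT mTEChi points lie above all WT mTEClo points, and in KO mTEClo the 5-week points lie above the 6-week points in every panel but Pcna and Ccne2.

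The same comparison in the KO asks whether the gates differ without Aire. In KO 13 of the 25 mitotic genes rose in mTEChi and none fell, where 29.2% of all genes tested rose and 57.2% were called in either direction, and the median log2 change was 0.97. Of the 20 S phase genes 3 rose (Pcna, Rrm2 and Gins2) and 3 fell (Mcm7, Rrm1 and E2f8), where 28.0% of all genes tested fell. Cdk1 had 21.7, 30.1, 6.25 and 2.67 CPM in the KO mTEClo libraries 1 to 4 and 70.6, 70.4, 39.7 and 44.3 in the KO mTEChi libraries 1 to 4, a change of 2.14 ± 0.41, adjusted p = 1.09e-04. These groups did not overlap, which among mitotic genes held also for Bub1b and Ect2, and for 25.0% of all genes tested in this direction. E2f8, an atypical E2F that represses S phase genes, had 8.12, 12.5, 5.36 and 9.23 CPM in KO mTEClo and 3.51, 2.86, 2.74 and 2.92 in KO mTEChi, without overlap, and fell with a log2 change of -1.49 ± 0.32, adjusted p = 1.76e-04. In WT it rose by 0.86 ± 0.19. The other genes called with the smallest p were Aurka (1.55 ± 0.34), Bub1b (2.08 ± 0.43) and Ect2 (0.87 ± 0.19) upward, and Mcm7 (-0.99 ± 0.18) and Rrm1 (-0.64 ± 0.12) downward. Summed marker levels moved with the gate in KO too: from 16.8 to 25.3 CPM to 41.8 to 55.2 for thymocytes, from 31.3 to 43.8 to 75.9 to 111 for dendritic cells and macrophages, from 260.01 to 369 to 679 to 832 for blood cells in general and from 51.5 to 75.5 to 137 to 183 for B cells. Ptcra and Clec9a were at 0 in all KO mTEClo libraries, and the part of these markers in the result was not tested. Without KO mTEClo replicate 2 the count of mitotic calls was 22, and with a term for library depth 23.

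The comparison of KO with WT in mTEChi asks what loss of Aire does in the gate that expresses it. In KO mTEChi 14 of the 25 mitotic genes fell and none rose, where 28.0% of all genes tested fell and 53.7% were called in either direction. The median log2 change of the 25 was -0.84, against -0.01 over all genes tested. In 15 of the 25 all KO libraries lay under the lowest WT library, which held for 19.8% of all genes tested. Of the 20 S phase genes 5 fell, a share below that over all genes tested, none rose and the median was -0.41. For 4 of them the groups were separate, about the share over all genes tested.

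The genes that fell were mostly those of chromosome structure, spindle and cytokinesis. Both chromosome structure genes, all 5 kinetochore and spindle genes and all 5 cytokinesis genes fell. Of the 8 genes listed as cyclins and kinases 1 fell, and of the 4 checkpoint and degradation genes 1 fell. The 8 include Birc5, which is neither a cyclin nor a kinase. All chromosome structure, spindle and cytokinesis genes but Nusap1 and Kif20a had more than 4354 bases of exon. The parts of role and exon length were not told apart. Mki67 had 169 to 322 with a median of 253 CPM in WT mTEChi and 111, 130.1, 70.5 and 83.5 in the KO libraries 1 to 4, of which 1 and 2 are 5-week and 3 and 4 are 6-week libraries. All 4 KO libraries lay below all WT libraries, and the change was -1.36 ± 0.46, adjusted p = 0.0179. Top2a had 105, 102, 46.2 and 66.4 CPM in KO against 126 to 265 with a median of 194 in WT, without overlap, a change of -1.34 ± 0.44, adjusted p = 0.0153. Kif11, the motor that pushes spindle poles apart, had 41.4 to 66.9 with a median of 56.1 CPM in WT and 23.7, 21.3, 11.6 and 17.1 in KO. Its change of -1.62 ± 0.37, adjusted p = 8.82e-04 was the largest of the 25. Cenpe, a kinetochore motor, fell with a log2 change of -1.45 ± 0.32, adjusted p = 5.59e-04 and Ect2 with -0.86 ± 0.16, adjusted p = 5.77e-05. Prc1, which bundles the central spindle, fell with a log2 change of -0.84 ± 0.20, adjusted p = 8.47e-04, and no KO library reached the lowest WT library for any of these. Bub1 had 17.9 to 29.7 with a median of 27.003 CPM in WT and 11.4, 11.05, 8.90 and 7.10 in KO and was the 1 checkpoint gene to fall, with a log2 change of -1.37 ± 0.36, adjusted p = 0.00209. Ccnb1 was the 1 cyclin, with 5.27, 4.91, 4.11 and 6.68 CPM in KO and a change of -0.87 ± 0.33, adjusted p = 0.0298, a call lost in 12 of 40 alternatives, as was that of Kif20a in 13.

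The other 11 mitotic genes did not pass the test. Cdk1 had 70.6, 70.4, 39.7 and 44.3 CPM in KO, where libraries 1 and 2 lay above all WT libraries, which had 36.1 to 50.7 with a median of 45.3, and its change was 0.27 ± 0.32, adjusted p = 0.495. Bub1b, the checkpoint protein BUBR1, had 72.4, 67.1, 45.9 and 47.6 CPM in KO against 38.6 to 60.1 with a median of 46.1 in WT, a change of 0.27 ± 0.34. Plk1 had 34.2, 27.005, 12.7 and 12.5 CPM against 18.4 to 32.8 with a median of 21.1, a change of -0.11 ± 0.42. For these 3 genes both 5-week KO libraries lay above both 6-week KO libraries. Birc5 had 15.8, 11.9, 7.19 and 7.10 CPM in KO (0.01 ± 0.32), Ccna2 31.2, 24.6, 11.98 and 20.05 (-0.54 ± 0.32) and Foxm1 32.5, 24.96, 12.7 and 15.5 (-0.27 ± 0.32). None of the 3 passed the test, and in each the 5-week and 6-week KO libraries did not overlap. The remaining genes without a call were Ccnb2, Cdc20, Aurka, Aurkb and Ube2c. Ccnb2 lay below all WT libraries in all 4 KO libraries without passing the test. The changes were -0.68, -0.45, -0.38, -0.18 and -0.02 in that order.

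The 5 S phase genes that fell were both E-type cyclins, Mcm10, Rrm1 and E2f8. Ccne1 had 7.14 to 12.4 with a median of 8.57 CPM in WT and 4.39, 4.91, 4.79 and 5.85 in KO, and Ccne2 9.996 to 12.001 with a median of 11.1 and 5.70, 6.14, 9.93 and 7.10. Neither pair of groups overlapped, and the changes were -0.82 ± 0.34, adjusted p = 0.0433 and -0.65 ± 0.20, adjusted p = 0.00712. The call of Ccne1 was lost in 17 of 40 alternatives, among them each KO mTEChi library left out. E2f8 had 8.57 to 14.2 with a median of 12.001 CPM in WT and 3.51, 2.86, 2.74 and 2.92 in KO, the largest change of all 45 genes at -2.03 ± 0.29, adjusted p = 1.15e-06. Rrm1 had 53.6 to 67.4 with a median of 60.03 and 38.6, 39.7, 35.9 and 32.997 CPM, without overlap, and fell with a log2 change of -0.72 ± 0.11, adjusted p = 2.32e-06. Mcm10 fell with a log2 change of -1.21 ± 0.32, adjusted p = 0.00239, with KO values of 10.97, 9.002, 2.74 and 5.85 CPM that overlap the WT range. No origin licensing gene passed: Mcm5 had 50.5, 50.3, 19.2 and 25.9 CPM in KO and Cdc6 2.63, 5.32, 4.11 and 2.92. Their changes were -0.22 ± 0.36 and -0.51 ± 0.31, and both overlapped WT. Pcna had 29.8, 30.3, 32.5 and 40.1 CPM in KO (0.07 ± 0.14), Rrm2 39.05, 33.1, 13.01 and 17.5 (-0.23 ± 0.35) and E2f1 7.02, 4.09, 3.42 and 4.18 (-0.42 ± 0.51). Rrm2 split by age, with the 5-week KO libraries above and the 6-week KO libraries below all WT libraries.

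**Figure D2:**
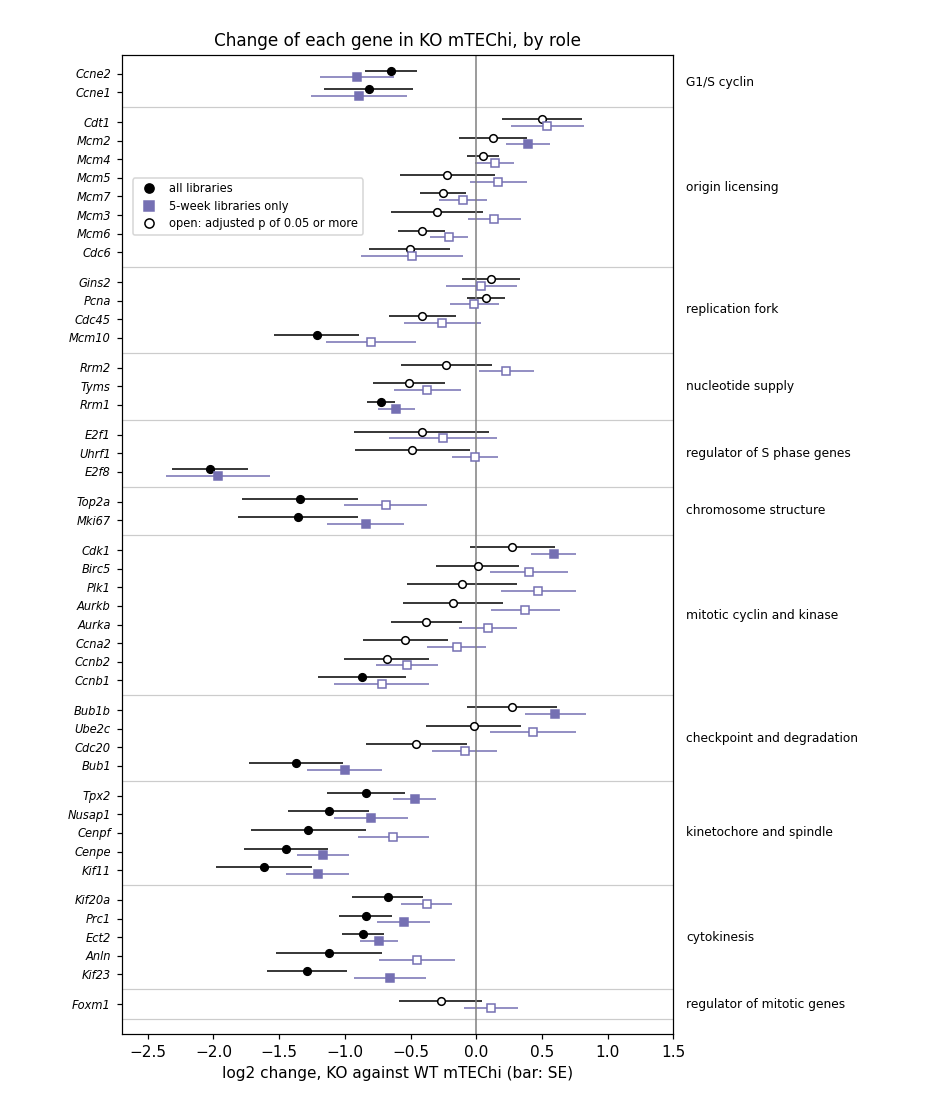
Log2 change of each of the 45 genes in KO against WT mTEChi, grouped by role, with bars for the SE. Black circles use all libraries and purple squares the 5-week libraries only, filled where the adjusted p was under 0.05: all spindle and cytokinesis circles are filled and lie between -1.62 and -0.67, while those of the 8 licensing genes are open.

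The 13 thymocyte markers were lower in KO mTEChi as well, from a summed 78.5 to 98.1 CPM in WT to 41.8 to 55.2 in KO, and 6 of the 7 tested fell. Markers of blood cells in general (4 genes) went the other way, from 483 to 545 CPM in WT to 679 to 832 in KO. So did 7 B cell markers, from 99.0 to 131 CPM to 137 to 183. The 7 markers of cortical thymic epithelium went from 380 to 448 CPM to 489 to 563. Of 9 markers of dendritic cells and macrophages, with a summed 118 to 156 CPM in WT and 75.9 to 111 in KO, 7 were tested, of which 5 fell and 1 rose. None of these markers was at 0 in all libraries of either group, and their part in the result was not tested. Age differs between the groups as well: with age in weeks as a term 4 mitotic genes were called, and leaving out KO mTEChi replicate 3 left 9. At a threshold of 0.01 on the adjusted p 7 mitotic genes were called, and with a change of over 2-fold 9 mitotic and 2 S phase genes.

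In mTEClo none of the 45 genes passed the test between KO and WT, where 12.0% of all genes tested rose and 9.69% fell (edgeR). The groups overlapped for all 45 genes, while 5.86% of all genes tested had every KO library above and 5.79% every KO library below the WT libraries. At an unadjusted p under 0.05 there were 2 mitotic genes lower and no S phase gene, and DESeq2 called none of the 45, with 1 mitotic gene lower at an unadjusted p under 0.05. The absence of calls went with a wide spread between the KO libraries. Mki67 had 97.4, 164, 25.3 and 11.2 CPM in the KO libraries 1 to 4 against 71.3 to 143 with a median of 108 in WT, a change of -0.68 ± 0.47, adjusted p = 0.329. Top2a had 52.5, 95.8, 22.04 and 4.13 CPM, Ccna2 16.2, 26.9, 6.25 and 2.91 and Cdk1 21.7, 30.1, 6.25 and 2.67. In each of these, library 2 lay above all WT libraries and libraries 3 and 4 below all of them. Ccnb1 had 2.71, 5.64, 1.19 and 0.243 CPM, Plk1 12.99, 20.7, 3.57 and 1.21, Birc5 5.41, 9.39, 3.57 and 0.971 and Foxm1 27.6, 38.8, 12.2 and 7.04. Among S phase genes Mcm5 had 53.05, 79.5, 22.9 and 13.6 CPM, Rrm2 18.4, 27.6, 7.45 and 3.16 and E2f1 7.04, 12.5, 0 and 1.21. The 0 of E2f1 in library 3 allows a level of up to 0.887 CPM in that library (3 counts), which covers counting error only. Cdc6 had 5.95, 8.14, 2.08 and 3.89 CPM, Ccne1 8.66, 17.5, 4.17 and 4.13, Ccne2 6.496, 6.89, 6.55 and 10.2 and Pcna 25.98, 23.2, 21.1 and 27.2. For Pcna and Ccne2 library 4 was the highest of the 4. Some summed marker levels differed between WT and KO mTEClo, from 114 to 163 CPM to 260.01 to 369 for blood cells in general. They went from 15.0 to 27.9 to 31.3 to 43.8 for dendritic cells and macrophages and from 184 to 235 to 292 to 478 for cortical thymic epithelium. Thymocyte and B cell markers overlapped between WT and KO. The part of these markers in the result was not tested. Leaving out KO mTEClo replicate 2 gave 9 mitotic and 2 S phase calls, and leaving out replicate 1 gave 2 mitotic calls. The direction turned with the age of the KO libraries kept, an alternative added after the values were seen. Without the 5-week KO libraries 8 S phase and 23 mitotic genes were lower in KO. Without the 6-week ones 8 S phase and 7 mitotic genes were higher. No share over all genes tested was computed for the fits with libraries left out, so these counts cannot be set against it.

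Whether the KO effect differed from gate to gate was tested directly. The difference passed for 4 S phase genes, all with a more negative effect in mTEChi, and for no mitotic gene, where 14.0% of all genes tested passed in this direction. The 4 were E2f8 (-2.36 ± 0.37, adjusted p = 2.15e-05), Rrm1 (-0.52 ± 0.14, adjusted p = 0.0067), Ccne1 (-1.35 ± 0.45, adjusted p = 0.0279) and Mcm10 (-1.29 ± 0.48, adjusted p = 0.0496). At an unadjusted p under 0.05 edgeR gave 2 mitotic genes with a more negative effect in mTEChi, and DESeq2 called 2 after adjustment. The call of Mcm10 was lost in 20 of 37 alternatives, among them depth class as a term, males only and most single left-out libraries, and that of Ccne1 in 6 of 37. Leaving out KO mTEClo replicate 2 left 2 S phase genes.

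The KO libraries were then compared by labelled age within each gate, in a fit with a group for each gate, genotype and age. These comparisons were added after the values were seen, and each age has 2 KO libraries per gate. Chi-square per gene between 2 libraries rises with differences beyond counting noise. In KO mTEChi it was 1.34 within the 5-week pair, 1.28 within the 6-week pair and 4.00 to 6.39 across ages. In KO mTEClo it was 1.62, 3.99 and 6.28 to 12.2 in the same order. The labels do not say whether libraries of an age were prepared together, so age and preparation cannot be told apart in either gate. In KO mTEClo all 25 mitotic genes and 11 of the 20 S phase genes were lower at 6 than at 5 weeks, where 10.9% of all genes tested were lower. The median log2 change was -2.36 for mitotic and -1.11 for S phase genes. In KO mTEChi 6 mitotic and 5 S phase genes were lower, where 4.93% of all genes tested were lower, 4.52% higher and 9.45% called in either direction, with medians of -0.71 and -0.28. No member was higher at 6 weeks in either gate.

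Bub1 in KO mTEClo was 7.58, 6.89, 0.893 and 0.243 CPM in libraries 1 to 4, a change of -3.65 ± 0.66, adjusted p = 1.34e-04 from 5 to 6 weeks. Its 6-week values rest on few counts: 3 counts are 0.887 CPM in library 3 and 0.723 in library 4. Cenpe, with 21.1, 18.2, 2.98 and 2.67 CPM, changed by -2.79 ± 0.33, adjusted p = 1.99e-07. Tpx2 had 24.4, 33.2, 6.25 and 5.10 CPM and changed by -2.33 ± 0.28, adjusted p = 2.35e-07. In all 3 genes both 6-week libraries lay below both 5-week libraries. Mki67 changed by -2.87 ± 0.42, adjusted p = 2.25e-04 and Cdk1 by -2.56 ± 0.33, adjusted p = 7.63e-07. Uhrf1 had the smallest p of the S phase genes: it had 53.05, 88.3, 9.83 and 8.01 CPM and changed by -2.98 ± 0.28, adjusted p = 4.83e-08. The licensing genes Mcm2, Mcm3 and Mcm5 changed by -1.37, -1.93 and -1.87, and Rrm2 by -2.14. E2f1 had the largest change, -3.77 ± 0.62, adjusted p = 3.84e-05, on few counts. In KO mTEChi the genes called lower were Mcm2, Mcm3, Mcm5, Rrm2 and Uhrf1 among S phase genes and Cdk1, Aurka, Aurkb, Plk1, Foxm1 and Anln among mitotic genes, from -0.75 ± 0.20 for Cdk1 to -1.50 ± 0.34 for Aurkb.

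The difference in this change between the gates passed for 8 mitotic and 2 S phase genes, each with a larger drop in mTEClo, where 1.77% of all genes tested passed in this direction, 1.17% in the other and 2.93% in either. Cenpe (-2.43 ± 0.42, adjusted p = 4.60e-04), Tpx2 (-1.82 ± 0.35, adjusted p = 0.00153), Cdk1 (-1.81 ± 0.39, adjusted p = 0.00543) and Ccnb2 (-2.06 ± 0.45, adjusted p = 0.00595) had the smallest p of the mitotic genes. Uhrf1 (-1.76 ± 0.37, adjusted p = 0.00718) and E2f1 (-3.23 ± 0.85, adjusted p = 0.0271) were the S phase genes.

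**Figure D3:**
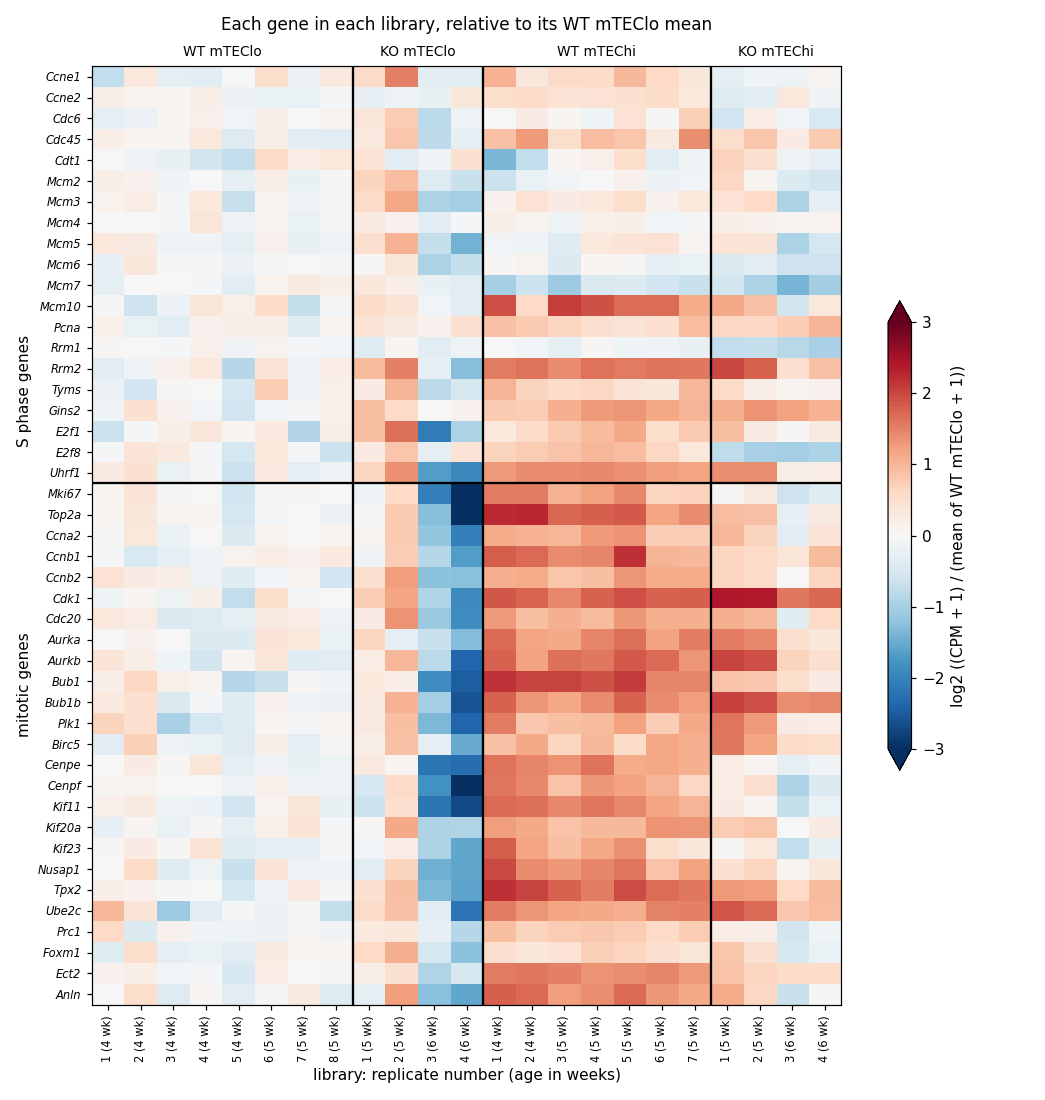
Each gene (vertical axis) in each library (horizontal axis, by group and replicate number with the age), as the log2 ratio of CPM + 1 to the mean of WT mTEClo + 1, with red for higher and blue for lower. Below the line between S phase and mitotic genes, the 7 WT mTEChi columns are red throughout, and the 6-week KO mTEClo columns are blue throughout.

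At 5 weeks alone, with 2 KO and 5 WT libraries of mTEChi, 9 mitotic genes were lower in KO and 2 were higher, where 26.4% of all genes tested were lower, 24.1% higher and 50.6% called in either direction. The lower genes with the smallest p were Cenpe (-1.17 ± 0.19, adjusted p = 7.28e-06), Ect2 (-0.74 ± 0.15, adjusted p = 7.56e-05), Kif11 (-1.21 ± 0.24, adjusted p = 1.49e-04) and Bub1 (-1.002 ± 0.29, adjusted p = 0.00397). The higher genes were Cdk1 (0.59 ± 0.17, adjusted p = 0.00449) and Bub1b (0.60 ± 0.23, adjusted p = 0.0333). Of the S phase genes Ccne1, Ccne2, Rrm1 and E2f8 were lower and Mcm2 was higher, by 0.39 ± 0.17, adjusted p = 0.0461. In mTEClo at 5 weeks, with 2 KO and 3 WT libraries, 6 S phase and 2 mitotic genes were higher in KO and none was lower, where 6.72% of all genes tested were higher, 6.08% lower and 12.8% called in either direction. The S phase genes were Mcm2 (0.75 ± 0.19, adjusted p = 0.00627), Uhrf1 (0.95 ± 0.23, adjusted p = 0.00708), Mcm3 (0.82 ± 0.24), Mcm5 (0.83 ± 0.25), Rrm2 (0.98 ± 0.30) and E2f1 (1.62 ± 0.48), and the mitotic genes Ccnb2 (1.08 ± 0.30, adjusted p = 0.0123) and Foxm1 (0.75 ± 0.25, adjusted p = 0.0386). In mTEClo both 5-week KO libraries are shallow and all 3 5-week WT libraries are deep, so genotype and depth cannot be told apart there. The median log2 difference of the mitotic genes was 0.52 in this comparison and 0.44 between shallow and deep 4-week WT mTEClo libraries. All of these comparisons share their 5-week KO libraries with those above.

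**Figure D4:**
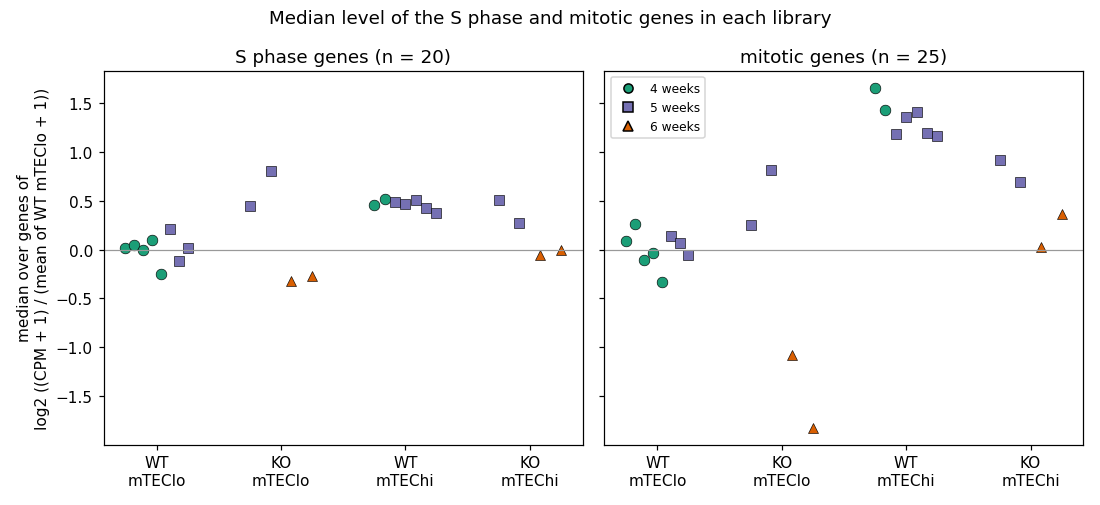
Median over the 20 S phase genes (left) and the 25 mitotic genes (right) of the log2 ratio to the WT mTEClo mean, 1 point per library, by group and age. The KO mTEClo libraries run from -1.83 to 0.81 for mitotic genes, and the WT mTEChi libraries from 1.16 to 1.66, above every KO mTEChi library.

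In KO mTEClo the 5-week libraries are the shallow ones, so age and depth cannot be told apart there, while all 4 KO mTEChi libraries had at least 2528049 counts. Within 4-week WT mTEClo, where depth differs at the same age, all 25 mitotic genes had a positive log2 difference between the 2 shallow and the 3 deep libraries. The median difference was 0.44 on the log2 scale, and 1 gene was called, Plk1 at 1.35 ± 0.31, adjusted p = 0.0129, where 1.51% of all genes tested were called higher and 1.65% in either direction. Between 5 and 4 weeks in WT, edgeR called Top2a (-0.68) and Cenpf (-0.57) lower in mTEChi, where 4.38% of the 17188 genes tested were lower and 8.49% called in either direction, and none in mTEClo. No S phase gene was called in either gate. At an unadjusted p under 0.05 there were 1 S phase gene higher and 6 mitotic genes lower in mTEChi, and 3 S phase genes and 1 mitotic gene higher in mTEClo. Of the 7 thymocyte markers tested, edgeR called 0 between the ages in KO mTEClo, with 1 higher at an unadjusted p under 0.05. Over all KO mTEClo libraries summed levels were 16.8 to 25.3 CPM for thymocytes and 51.5 to 75.5 for B cells. They were 76.9 to 194 for fibroblasts, 47.6 to 89.8 for endothelium and 292 to 478 for cortical thymic epithelium. Calls of these other lists between the ages are not given here, and the part of the markers was not tested. Leaving out 1 KO library at a time left 18 to 25 mitotic calls in mTEClo, lowest without KO mTEClo replicate 2, and 0 to 9 in mTEChi, with 0 without KO mTEChi replicate 1 or 3.

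Longer mitotic genes had more negative changes in KO mTEChi, as they did in some comparisons without the KO. Spearman's rho between the log2 change and the annotated exon length was -0.62 across the 25 mitotic genes and -0.35 across the 20 S phase genes, against -0.08 across all 19310 genes tested and -0.17 across the 13704 genes within the members' range of level. Genes share these libraries and are not independent replicates, so no p is given. Of the 12 longest mitotic genes 10 fell, with a median of -1.20, and of the 13 others, up to 4354 bases, 4 fell, with a median of -0.45. Those 10 are all chromosome structure, spindle or cytokinesis genes, so role and exon length largely coincide and were not told apart. The longest were Cenpf (15433 bases of exon), a kinetochore protein, with -1.28 ± 0.44, adjusted p = 0.0186, and Mki67 (10061 bases). Among the shortest, Ccnb2 (1531 bases) changed by -0.68, Cdc20 (1868) by -0.45 and Plk1 (2199) by -0.11. Across 47 other mitotic genes rho with exon length was -0.34. With the length of the longest coding transcript it was -0.51 for the 25 mitotic genes and -0.25 for the other 47. Comparisons without the KO gave negative values for the 25 genes too: rho with exon length was -0.56 for 5 against 4 weeks in WT mTEChi and -0.47 for shallow against deep 4-week WT mTEClo libraries. It was 0.00 for the gates in WT. For KO against WT mTEChi at 5 weeks alone it was -0.51, and the part of age and depth in the trend was not tested.

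**Figure D5:**
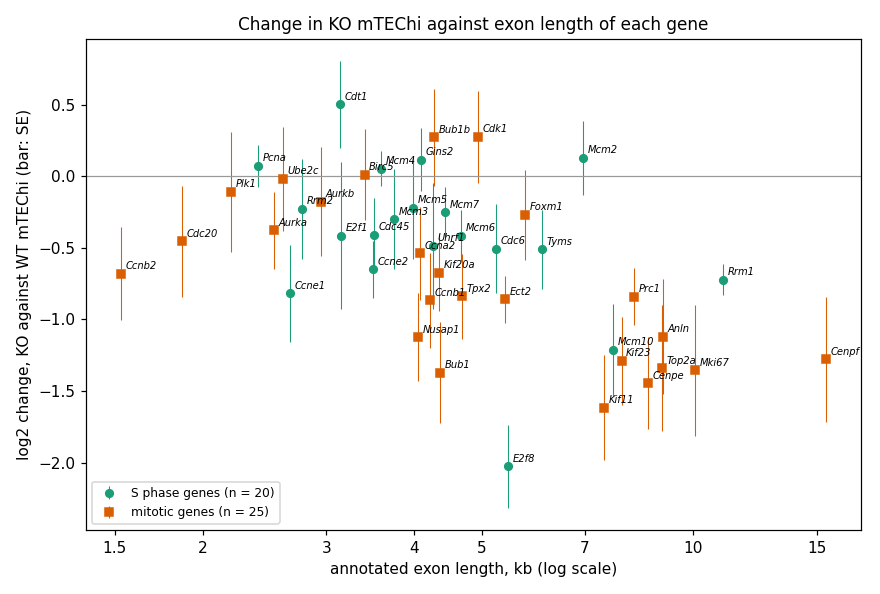
Log2 change in KO against WT mTEChi (vertical axis, bar for the SE) against annotated exon length in kb (horizontal log axis) for the 20 S phase and 25 mitotic genes. The 8 longest mitotic genes lie between -1.62 and -0.84, and the shorter ones between -1.37 and 0.27.

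Other genes of the same pathways were tested in the same fits. Their lists were written from general knowledge, but with earlier results of these data known, so they are no independent check. Their counts are to be read against the shares over all genes tested: 36.7% rose and 33.4% fell between the gates in WT, 25.7% rose and 28.0% fell in KO mTEChi, and 12.0% rose and 9.69% fell in KO mTEClo. Of 47 other mitotic genes tested 43 rose and 1 fell in WT mTEChi against mTEClo, led by Racgap1 (1.63 ± 0.13), a partner of the exchange factor Ect2, Kif4 (2.25 ± 0.19), a chromosome motor, and Plk4 (1.58 ± 0.14), the kinase for centriole copying. The 1 that fell was the phosphatase Cdc25b (-0.58 ± 0.09). In KO mTEChi 24 of the 47 fell and none rose, led by the condensin subunit Smc2 (-1.06 ± 0.19), the motor Kif15 (-1.20 ± 0.21) and the centrosome kinase Nek2 (-1.70 ± 0.31). In mTEClo 2 fell in KO, Nek2 (-0.94 ± 0.32) and the condensin subunit Ncaph (-1.10 ± 0.37).

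Of 39 other S phase genes tested 18 (46.2%) rose and 2 (5.13%) fell in WT mTEChi against mTEClo, where 36.7% and 33.4% of all genes tested did. The repair gene Brca1 (1.36 ± 0.16), the checkpoint adaptor Clspn (2.13 ± 0.26) and the primase partner Pola2 (0.93 ± 0.12) led the rise, and the polymerase subunit Pold3 (-0.87 ± 0.09) and the clamp loader Rfc3 (-0.60 ± 0.15) fell. In KO mTEChi 22 fell and 3 rose. The DNA ligase Lig1 (-0.78 ± 0.14) and Brca1 (-0.97 ± 0.21) led the fall. Thymidine kinase Tk1 (0.76 ± 0.14), the polymerase Pold1 (0.84 ± 0.21) and Pola2 (0.39 ± 0.15) rose. In mTEClo none of the 39 was called between KO and WT in edgeR, with 2 higher and 4 lower at an unadjusted p under 0.05.

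The D cyclins and their kinases, which act before S phase, did not move as 1 group. In WT 3 of 9 rose and 5 fell in mTEChi, where 36.7% and 33.4% of all genes tested did. Ccnd1 had 65.2 to 109 with a median of 89.4 CPM in WT mTEClo and 39.03 to 52.3 with a median of 45.7 in WT mTEChi, without overlap, and fell with a log2 change of -0.94 ± 0.19, adjusted p = 1.57e-04. Ccnd2 had 225 to 361 with a median of 297 and 536 to 645 with a median of 571 CPM, also without overlap, and rose by 0.97 ± 0.19, adjusted p = 1.11e-04. Ccnd3 fell with a log2 change of -0.62 ± 0.08 and its kinase Cdk4 with -0.61 ± 0.11, while Mycn, a MYC family factor, rose by 2.59 ± 0.32 and Myc by 1.06 ± 0.14. In the KO gates Ccnd2 changed by 0.88 ± 0.26, Ccnd1 by -0.61 ± 0.26 and Ccnd3 by -0.10 ± 0.11, the last without a call. In WT mTEChi Ccnd3 had 33.2 to 38.99 with a median of 35.4 CPM and in KO 56.6, 54.4, 42.8 and 47.6, without overlap. It rose by 0.48 ± 0.10, adjusted p = 2.80e-04, and Myc rose by 0.56 ± 0.17. Mycn fell with a log2 change of -1.96 ± 0.39 and the phosphatase Cdc25a with -1.06 ± 0.19. Ccnd1 had 69.8, 72.01, 32.9 and 44.7 CPM in KO mTEChi (0.24 ± 0.25) and Ccnd2 685, 646, 414 and 457 (-0.08 ± 0.24), neither with a call. In KO mTEClo Myc (1.02 ± 0.18) and Cdk4 (0.38 ± 0.13) rose, and Ccnd1, Ccnd2 and Ccnd3 changed by -0.08, 0.01 and -0.05. Between 5 and 6 weeks in KO mTEClo Ccnd1 (120.2, 122, 55.7 and 47.8 CPM) was lower, with a log2 change of -1.23 ± 0.15, and so was Ccnd2 (342, 519, 199 and 152 CPM), with -1.30 ± 0.20.

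Of 7 inhibitors of cyclin-dependent kinases 4 rose in WT mTEChi, where 36.7% of all genes tested rose, and none fell: Cdkn2c (1.20 ± 0.15), Cdkn2b (1.13 ± 0.17), Cdkn2a (0.68 ± 0.25) and Cdkn1a (0.55 ± 0.12), while Cdkn1b, Cdkn1c and Cdkn2d changed by -0.20, 0.33 and 0.01. In KO Cdkn2c, Cdkn2b, Cdkn2a and Cdkn1a rose in mTEChi too, by 1.002, 1.56, 1.82 and 0.68, and Cdkn1b, Cdkn1c and Cdkn2d had -0.14, -0.01 and 0.31. Cdkn2c had 6.87 to 13.99 with a median of 10.6 CPM in WT mTEClo and 17.4 to 28.1 with a median of 25.2 in WT mTEChi, without overlap. Between KO and WT Cdkn1b (p27) was the 1 inhibitor called, and it rose in both gates. It had 62.6 to 86.8 with a median of 76.8 CPM in WT mTEChi and 106, 99.8, 106 and 104 in KO (0.42 ± 0.12, adjusted p = 0.00387), without overlap. In mTEClo it had 80.8 to 104 with a median of 87.2 and 85.5, 91.4, 127 and 148 CPM (0.36 ± 0.12, adjusted p = 0.0272), with overlap in the 5-week libraries. The other 6 changed in mTEChi by 0.30 (Cdkn1a), -0.44 (Cdkn1c), 0.32 (Cdkn2a), 0.01 (Cdkn2b), 0.19 (Cdkn2c) and 0.53 (Cdkn2d). In mTEClo they changed by 0.17, -0.10, -0.82, -0.42, 0.38 and 0.23 in the same order. The gate difference of the KO effect was called for no inhibitor in edgeR, with 1 at an unadjusted p under 0.05, and for Ccnd3 (0.52 ± 0.14), Cdc25a (-0.89 ± 0.25) and Mycn (-2.17 ± 0.65) among the D cyclin list.

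Of 17 genes of the RB, E2F and DREAM factors 4 (23.5%) rose and 5 (29.4%) fell in WT mTEChi against mTEClo, shares below those over all genes tested (36.7% and 33.4%). Tfdp1, the partner of E2F proteins, rose by 1.64 ± 0.10, E2f7 by 2.54 ± 0.24 and E2f2 by 2.10 ± 0.26, and E2f6 fell with a log2 change of -1.52 ± 0.13. In KO mTEChi 4 of the 17 rose and 7 fell, where 25.7% and 28.0% of all genes tested did. E2f7, like E2f8 an atypical repressor, fell with a log2 change of -2.06 ± 0.32, adjusted p = 8.07e-06, the MuvB subunit Lin9 with -0.66 ± 0.21 and Tfdp2 with -0.46 ± 0.15, and Tfdp1 rose by 0.53 ± 0.12. In KO mTEClo Tfdp1 (0.47 ± 0.13) and E2f5 (0.44 ± 0.14) rose and E2f3 (-0.54 ± 0.19) fell. The difference between the KO effects was called for E2f7 (-1.998 ± 0.48) and Tfdp2 (-0.68 ± 0.19).

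In the KO 19 of the 47 other mitotic genes rose in mTEChi against mTEClo and 1 fell, and 10 of the 39 other S phase genes rose and 2 fell. Over all genes tested 29.2% rose and 28.0% fell, so the share of the S phase genes that rose lay below that over all genes. Kif4 (2.53 ± 0.31) and the kinetochore gene Spc25 (2.84 ± 0.39) led the mitotic genes, and Tk1 (1.27 ± 0.17) the S phase genes. Between 5 and 6 weeks in KO mTEClo 28 of the 47 and 13 of the 39 were lower at 6 weeks and none was higher. Over all genes tested 10.9% were lower and 10.2% higher. The mitotic kinase Melk (-3.63 ± 0.42) and the condensin subunit Ncapd2 (-1.16 ± 0.14) had the smallest p among the former, and the polymerase Pole (-2.47 ± 0.31) among the latter. Cdkn1b was higher at 6 weeks (0.64 ± 0.12) and Cdkn1c lower (-1.49 ± 0.26). In KO mTEChi 14 of the 47 were lower and Plk4 was higher (0.80 ± 0.22), and 3 of the 39 were lower. There 4.93% of all genes tested were lower and 4.52% higher.

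Of 15 genes of cell cycle exit and p53 response 7 rose and 5 fell in WT mTEChi against mTEClo, where 36.7% and 33.4% of all genes tested did, with the p53 ligase Mdm2 at 0.78 ± 0.07 and the growth arrest gene Gas1 at -4.77 ± 0.23. In the KO gates Mdm2 rose by 1.02 ± 0.10 and Gas1 changed by -5.81 ± 0.34. In KO against WT mTEChi 6 of the 15 rose and 2 fell, where 25.7% and 28.0% of all genes tested did. The receptor Eda2r had 11.2 to 24.5 with a median of 17.4 CPM in WT and 68.9, 55.6, 60.9 and 69.8 in KO and rose by 1.68 ± 0.18, adjusted p = 1.21e-08. The apoptosis effector Bax rose by 1.04 ± 0.14 and the stress gene Sesn1 by 0.67 ± 0.14, and Trp53inp1 (-0.73 ± 0.10) and Plk2 (-1.27 ± 0.23) fell. In mTEClo Sesn1 (0.84 ± 0.14), Btg2 (0.61 ± 0.13) and Eda2r (0.81 ± 0.20) rose and Trp53inp1 (-0.48 ± 0.10) fell.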

How the data were processed

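Bulk RNA-seq of sorted mTECs gave 23 libraries of total RNA, primed with oligo(dT) and random primers per the labels' protocols. The authors deposited a table of raw counts by Ensembl identifier for the whole series, and these counts were used. The submitters' processing notes name HTSeq 0.11.2, edgeR, Picard 2.21.1, fastp 0.20.0, SAMtools 1.9 and STAR 2.7.3a, with the builds mm10 and GRCm38; how each was used is not given in the sources used here. A normalized table was not used. Symbols and exon lengths come from GENCODE vM21.

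All 23 libraries entered 1 edgeR (4.0.16, R 4.3.3) quasi-likelihood fit of group and sex with TMM factors, after a filter (filterByExpr, minimum count 10) that kept 19310 of 53402 identifiers. P-values were Benjamini-Hochberg adjusted over all genes tested, with a threshold of 0.05, and SE is the log2 change divided by the square root of F. Age comparisons in the KO came from a fit with 8 groups of gate, genotype and age and sex, added after seeing the data; the WT ages were compared in a fit of the WT libraries. DESeq2 1.42.0, other library factors, filters, covariates and left-out libraries were tried as alternatives. The comparison of KO with WT in mTEChi was tried on simulated data with the same spread for all genes and no age differences. The other comparisons were not tried in this way. Library totals of 1602125 to 3938588 counts put 3 counts at 0.723 to 1.897 CPM, and the libraries' number limits precision further. Same-numbered libraries were checked for shared deviations, and no number was used to pair them.

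The 45 genes and all lists were chosen with earlier results of these data known. Named are 15 listed genes in every library, up to 4 genes per group, comparison and direction with the smallest p, genes called against their group's majority, and up to 3 genes per other list. D cyclins and inhibitors are named throughout. Promoter windows are RefSeq's on GRCm38.p6.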

Additional observations from a re-analysis of the deposited data

Results flagged for a closer look

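The level of each of the 45 genes was searched in each of the 4 groups for a library that stands far from the others of its group (Dixon's criterion), 180 checks in all, of which chance alone marks about 1 in 20. It marked 8. In WT mTEClo these were Mcm4 in replicate 4 (56.4 CPM, next highest 45.5), Mcm6 in replicate 2 (83.9 against 68.2), Tyms, the thymidylate synthase, in replicate 6 (17.4 against 11.1), Birc5 in replicate 2 (8.27 against 5.49) and Prc1 in replicate 1 (29.3 against 20.9). Ccne2 was high in KO mTEClo replicate 4 (10.2 against 6.89). Ccnb2 was low in KO mTEChi replicate 3 (11.6, next lowest 18.0) and Cdk1 in WT mTEChi replicate 3 (36.1 against 45.005).

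The KO effect differed between the gates, in a test of the difference (mTEChi minus mTEClo), for Ccne1 (-1.35), Mcm10 (-1.29), Rrm1 (-0.52) and E2f8 (-2.36). Over all genes tested 14.0% passed in this direction and 24.8% in either. The call of Mcm10 was lost in 20 of 37 alternatives. The change from 5 to 6 weeks in the KO differed between the gates (mTEClo minus mTEChi) for E2f1 (-3.23), Uhrf1 (-1.76), Mki67 (-2.22), Ccnb2 (-2.06), Cdk1 (-1.81), Bub1 (-3.18), Bub1b (-2.01), Cenpe (-2.43), Kif11 (-2.16) and Tpx2 (-1.82), all on the log2 scale. In this direction 1.77% of all genes tested passed. E2f1 and Bub1 had few counts at 6 weeks in KO mTEClo, and age and depth cannot be told apart there.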

How the results depend on the processing

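The values below count genes called of the 20 S phase or 25 mitotic genes. The direction of the calls for the KO effect in mTEClo, and of the mitotic calls for its difference between the gates, turned with the KO age kept (below). At an adjusted p under 0.01 the KO effect in mTEChi had 7 mitotic calls and the difference of the KO effects 2 S phase calls. With a change of over 2-fold required there were 4 S phase calls between the gates in WT, 2 between the gates in KO, and 2 S phase and 9 mitotic calls for the KO effect in mTEChi. The difference of the KO effects had no mitotic call in the main edgeR fit. Other edgeR fits gave 2 with RLE factors, 2 with upper quartile factors and 2 with library totals only. They gave 1 with no filter, 1 with no sex term and 3 with age as a term. DESeq2 gave 2. With library totals only the KO effect in mTEChi had 8 S phase calls, and with age as a term 4 mitotic calls. With depth class as a term there were 23 mitotic calls between the gates in KO, 4 for the KO effect in mTEClo and 2 S phase calls for the difference of the KO effects. With males only the last had 2. The labels do not say whether replicate numbers pair the libraries, and the main fits used no pairing. Deviations of same-numbered libraries correlated at -0.19 to 0.20 over all comparisons. Between the KO gates, where same-numbered libraries share age and sex, they correlated at 0.06 to 0.14. There mTEChi libraries 1, 2 and 4 correlated best with the mTEClo library of the same number, so pairing in the KO is not settled. A replicate block gave 3 mitotic calls for the KO effect in mTEClo and 1 for the difference of the KO effects.

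Alternatives chosen after seeing the data were the following. With 5-week KO against 5-week WT libraries the KO effect in mTEClo had 6 S phase and 2 mitotic calls, all higher in KO. Without the 5-week KO libraries there were 22 mitotic calls between the gates in KO, 9 S phase calls for the KO effect in mTEChi, 8 S phase and 23 mitotic calls for that in mTEClo, all lower in KO, and 2 mitotic calls for the difference, both higher in mTEChi than in mTEClo. Without the 6-week KO libraries there were 7 mitotic calls between the gates in KO, 8 S phase and 7 mitotic calls for the KO effect in mTEClo, all higher in KO, and 12 mitotic calls for the difference, all lower in mTEChi than in mTEClo.

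With 1 library left out at a time, mitotic calls ranged from 24 to 25 between the gates in WT and S phase calls from 11 to 12. Between the gates in KO they ranged from 9 (without KO mTEClo replicate 4) to 22 (without KO mTEClo replicate 2) and from 5 to 7. For the KO effect in mTEChi they ranged from 9 (without KO mTEChi replicate 3) to 15 and from 4 to 6, and in mTEClo from 0 to 9 and from 0 to 2, highest without KO mTEClo replicate 2. For the difference of the KO effects they ranged from 0 to 2 (without KO mTEClo replicate 4 or KO mTEChi replicate 1) and from 2 (without KO mTEClo replicate 2) to 4. Between 6 and 5 weeks they ranged from 18 to 25 and from 7 to 11 in KO mTEClo, lowest without its replicate 2. In KO mTEChi they ranged from 0 (without its replicate 1 or 3) to 9 and from 1 (without its replicate 3) to 5. Such a fit leaves 1 library at an age, which is assumed to vary like the others. Between 5 and 4 weeks in WT they ranged from 0 to 5 and from 0 to 1 in mTEChi and from 0 to 0 in mTEClo. The 5 arose without WT mTEClo replicate 5.

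Depth limits the low genes: in the shallowest libraries 3 counts are 1.897 CPM, close to the levels of E2f1 and Ccnb1 in mTEClo. All KO libraries are male and no KO library is 4 weeks old. The causes of these shifts were not tested.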

Other observations

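Histone genes that are transcribed with DNA replication make up a further group that dividing cells use, and their RNAs mostly lack a poly(A) tail. The list used here took histone genes by symbol only, from Hist1h to Hist4h. Whether each listed gene is transcribed only with replication, or lacks a poly(A) tail, was not checked. Of 70 genes in the list 18 passed the filter on low counts. In WT 11 of the 18 rose in mTEChi against mTEClo and none fell, where 36.7% of all genes tested rose, led by the linker histone gene Hist1h1d (1.21 ± 0.16), Hist1h2bj (2.30 ± 0.40), Hist1h1c (0.44 ± 0.10) and Hist1h1a (1.34 ± 0.34). In KO mTEChi, where 25.7% of all genes tested rose, 4 rose against WT, Hist1h2bc (1.01 ± 0.20), Hist1h1d (0.54 ± 0.19), Hist1h4d (0.60 ± 0.23) and Hist1h1c (0.31 ± 0.12), and Hist2h2be fell (-0.72 ± 0.20). In KO mTEClo 5 rose and none fell, where 12.0% of all genes tested rose, led by Hist4h4 (1.96 ± 0.29), Hist1h2bc (0.89 ± 0.21), Hist2h3c2 (1.55 ± 0.38) and Hist1h1d (0.75 ± 0.21). Between 5 and 6 weeks in KO mTEClo Hist1h1b (-3.43 ± 0.54) and Hist1h1a (-2.34 ± 0.58) were lower, and Hist1h2bc (1.43 ± 0.22) and Hist1h2be (1.21 ± 0.40) higher. These are edgeR log2 changes with SE, called at an adjusted p under 0.05, and histone genes are near-identical copies whose reads may be split or dropped in counting.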
